A study of Mus musculus with 13 samples.

Results

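The dermal fat cell genes are 10 genes that mark or serve white fat cells: Adipoq, Lep, Pparg, Fabp4, Plin1, Lpl, Lipe, Pck1, Slc2a4 and Fam13a. A gene was taken where an array probe carried its symbol and no other, and the probe with the highest mean stood for it. All 10 of 10 were found, out of 19938 genes with such a probe. The tissue was whole skin from the back of P30 (postnatal day 30) C57Bl6 males in anagen, when hair grows. Mice lived in 12 h of light and 12 h of dark on standard chow. Collections ran at 4 h steps between ZT2 and ZT50, with ZT the time in hours since the lights came on. RNA of 3 mice was pooled in equal amounts at each time, giving 13 pools with 1 array each, 7 from the light and 6 from the dark. There were 3 pools at 2 h of the day and 2 at each of 6, 10, 14, 18 and 22 h. The series title concerns Bmal1, daily cell proliferation and UVB damage in the epidermis, and every pool came from mice with no labelled mutation or treatment.

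Beneath the dermis of mouse back skin lies a layer of white fat cells, which thickens while hair follicles grow. Fat cells take up fatty acids and glucose, store them as triglyceride around a coated lipid droplet, release them by lipolysis, and secrete hormones. In many tissues the supply and release of lipid follow the daily cycle of feeding and rest. Whole skin also holds epidermis, follicles, sebaceous glands, fibroblasts, vessels and a thin sheet of skeletal muscle, so each value is an average over all these cells. In such bulk samples fewer cells of a type and less RNA per cell cannot be told apart.

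All 10 genes passed the filter on low values, which dropped probes with a mean below the 25th percentile and left 16322 genes for testing. Of 19 other genes of mature fat cells, 17 had a probe with their symbol alone, and all 17 passed. Retn (resistin) lay between 3401 and 5762 intensity units and Cd36, a fatty acid carrier, between 3524 and 4399. Ucp1, the defining gene of brown fat, did not reach the filter. Some pools stood apart in tissues other than fat. The mean of 20 skeletal muscle genes was lowest in ZT2 and highest in ZT30, 2.29-fold apart, and that of 12 liver genes was highest in ZT46, 7.98-fold above ZT26. The summed intensity of the muscle genes spanned 53410 to 112232 in light pools and 60376 to 112124 in dark pools. That of the liver genes spanned 4425 to 8705 and 4383 to 37141. That of the 10 fat cell genes spanned 21486 to 25089 and 22536 to 23796. Although the muscle ranges overlapped, 0 of the 20 muscle genes had a higher fitted value in the dark.

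The first comparison asked whether the fat cell genes followed a 24 h wave. Fam13a did, rising to a peak at the change from light to dark. None of the other 9 passed, although the glucose transporter gene Slc2a4 had a peak at nearly the same hour. The wave was fitted with limma to log2(intensity + 16), with linear time as covariate, and adjusted over all 16322 genes by Benjamini-Hochberg. The threshold was an adjusted p under 0.05. It called 1 of 10 fat cell genes, while the share over all genes was 0.141% (23 of 16322). At an unadjusted p under 0.05 there were 2 fat cell genes, beside 9.54% of all genes. The members were chosen with earlier results of these data known, so no excess is read from these counts. The median peak-to-trough fold was 1.14 in the fat cell genes and 1.09 over all genes. Each pool held other mice, so these p-values measure the spread between pools.

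**Figure D1:**
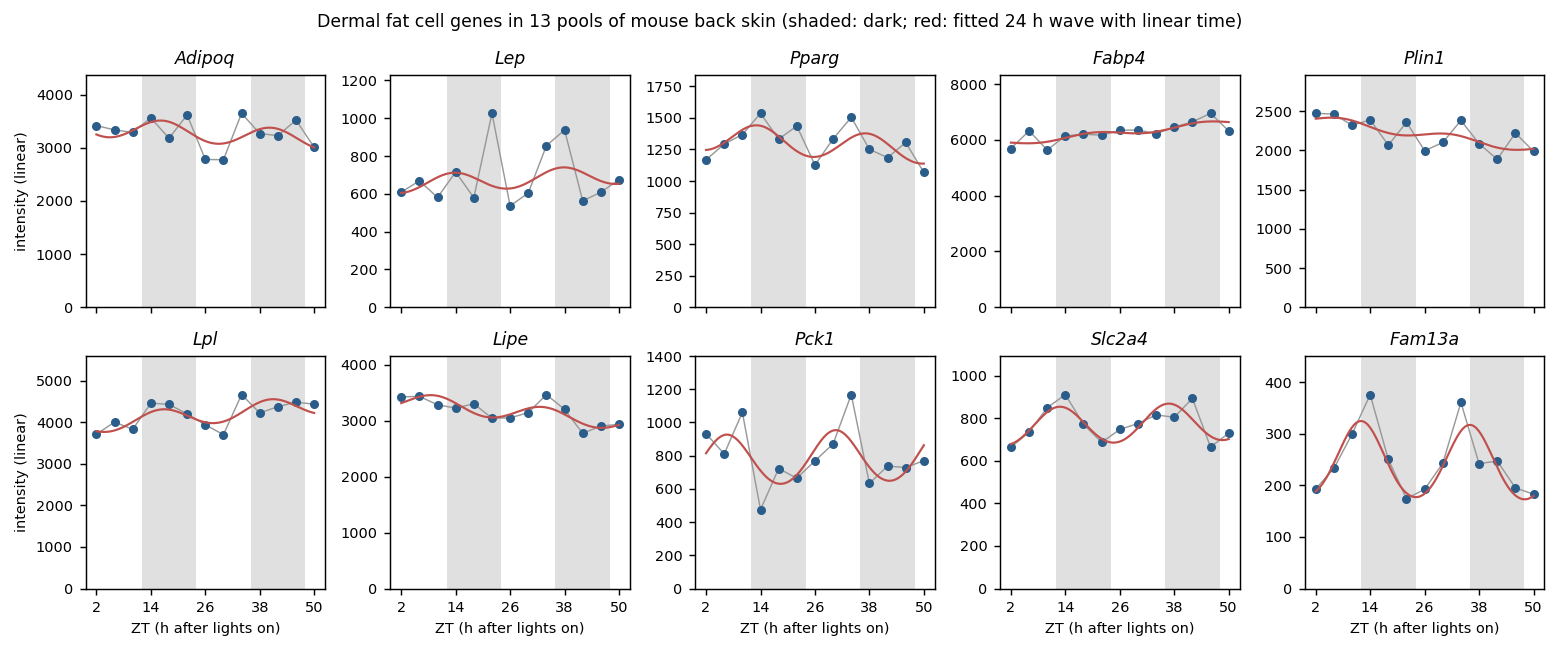
Array intensity (linear scale, from 0) of the 10 fat cell genes in each of the 13 pools against ZT in hours. Points are single pools, grey bands are dark hours, and the red line is the fitted 24 h wave with linear time. Fam13a rises to 376.3 at ZT14 and 361.1 at ZT34, and Pck1 is highest at ZT10 and ZT34.

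Variants near the human counterpart of Fam13a are tied to body fat distribution. From ZT2 to ZT22 its intensity read 193.5, 233.0, 299.7, 376.3, 250.5 and 174.4. From ZT26 to ZT50 it read 192.5, 243.0, 361.1, 242.3, 247.4, 195.4 and 183.0. The 3 pools at 2 h averaged 189.7 ± 5.82 (SD, n = 3), and those at 22 h 184.9 ± 14.9 (SD, n = 2). The pools at 10 h averaged 330.4 ± 43.4 (SD, n = 2) and those at 14 h 309.3 ± 94.7 (SD, n = 2), so the high and low hours did not overlap. On each day the lowest values came at 2 and 22 h, with the highest pool at ZT14 on the first day and at ZT34 on the second. The fitted peak-to-trough fold was 1.74 (amplitude 0.40 ± 0.058 log2, SE, 13 pools), with a peak at 12.0 ± 0.58 h (limma adjusted p = 0.0285). Fitted to each day alone, the amplitude was 0.48 with a peak at 12.5 h on day 1 and 0.34 with a peak at 11.1 h on day 2. The difference between the days did not pass (adjusted p = 0.452).

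The Fam13a call held without ZT38, ZT42 or ZT46 (adjusted p from 0.00149 to 0.0499). It was lost without any one of the other 10 pools, ZT2, ZT6, ZT10, ZT14, ZT18, ZT22, ZT26, ZT30, ZT34 and ZT50 (adjusted p from 0.0531 to 0.133), with the fitted fold between 1.63 and 1.78. It was also lost with quantile normalization (adjusted p = 0.0701), no filter (0.0514), day as a factor (0.0706), the muscle mean (0.127) or the other fat cell genes (0.207) as covariate, 24 and 12 h waves together (0.096) and times of day as a factor (0.818). Fam13a is dim on these arrays, with a mean of 7.99 log2 beside a filter at 7.61.

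Slc2a4 encodes GLUT4, the glucose transporter that insulin brings to the surface of fat and muscle cells. Its intensity from ZT2 to ZT22 was 663.8, 735.0, 849.7, 911.2, 771.9 and 686.9. From ZT26 to ZT50 it was 747.5, 775.2, 815.9, 804.5, 893.2, 664.9 and 730.0. The pools at 22 h and ZT2 were low, and ZT14 and ZT42 were high. At 14 h the mean was 857.8 ± 75.4 (SD, n = 2) and at 22 h 675.9 ± 15.6 (SD, n = 2). The fitted fold was 1.25 (amplitude 0.16 ± 0.037 log2, SE) with a peak at 12.7 ± 0.97 h, which did not pass (limma adjusted p = 0.333).

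Pparg, the nuclear receptor that directs fat cell formation, did not pass for the wave. It read 1168, 1293, 1368, 1536, 1332 and 1435 from ZT2 to ZT22. From ZT26 to ZT50 it read 1127, 1333, 1505, 1251, 1185, 1305 and 1068. All 3 pools at 2 h lay below the 10 other pools, with a mean of 1121 ± 50.1 (SD, n = 3) against 1436 ± 97.0 (SD, n = 2) at 10 h. Its fitted fold was 1.18 with a peak at 13.4 ± 1.7 h (limma adjusted p = 0.547), and the peak was at 14.9 h on day 1 and 9.8 h on day 2.

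**Figure D2:**
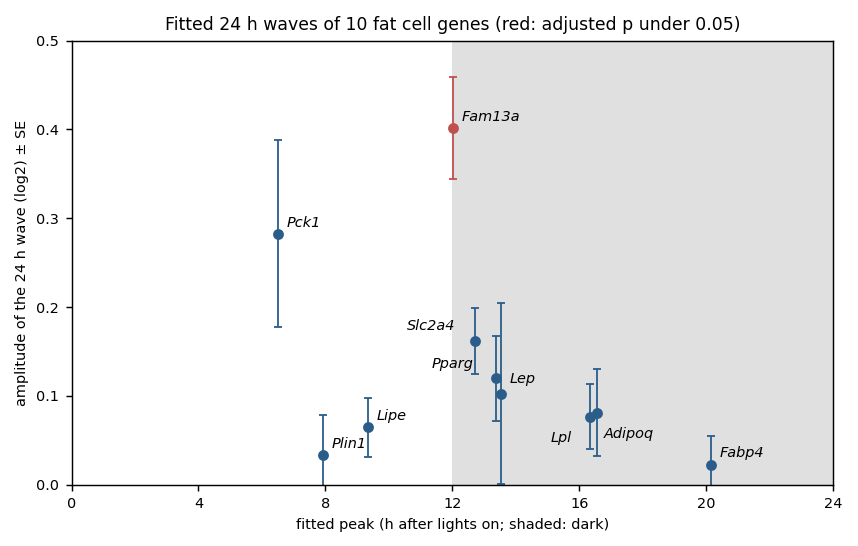
Amplitude of the fitted 24 h wave (log2, ± SE) against the fitted peak (hours after lights on, dark hours shaded) for the 10 fat cell genes. Fam13a, in red, is the one with an adjusted p under 0.05, at 0.40 and 12.0 h, and Pck1 follows at 0.28 and 6.5 h with a wider error.

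Promoter windows from RefSeq (GRCm38.p6) were matched by symbol for 7 of the 10 genes, some with several starts, and Fabp4, Lpl and Slc2a4 are named only. Each window ran from 250 bases before a start to 50 after it, and 10 windows were searched on both strands. The motifs were the E-box CACGTG bound by the clock's activators, the D-box TTATGTAA, the spaced direct repeat of the PPAR response element, the full palindrome of the glucocorticoid response element, the TATA box TATAAA and the CCAAT box, none of which contains another. The bases before the start are shown for Fam13a, which carried the wave, for Adipoq and Plin1, a hormone and a lipid droplet gene set against each other under covariation, and for the Lipe start that held an E-box. Capitals mark motif matches.

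Fam13a (chr6:59024503-59024752, minus strand): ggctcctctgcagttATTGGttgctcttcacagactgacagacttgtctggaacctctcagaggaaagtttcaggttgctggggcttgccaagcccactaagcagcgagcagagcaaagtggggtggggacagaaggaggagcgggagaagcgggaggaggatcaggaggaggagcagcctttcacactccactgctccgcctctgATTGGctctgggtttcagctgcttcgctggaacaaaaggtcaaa

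Adipoq (chr16:23146286-23146535, plus strand): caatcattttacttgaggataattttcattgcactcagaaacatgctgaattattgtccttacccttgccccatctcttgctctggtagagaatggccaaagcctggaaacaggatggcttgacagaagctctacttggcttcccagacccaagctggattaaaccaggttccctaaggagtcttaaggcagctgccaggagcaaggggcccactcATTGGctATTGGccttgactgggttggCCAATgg

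Plin1 (chr7:79732777-79733026, minus strand): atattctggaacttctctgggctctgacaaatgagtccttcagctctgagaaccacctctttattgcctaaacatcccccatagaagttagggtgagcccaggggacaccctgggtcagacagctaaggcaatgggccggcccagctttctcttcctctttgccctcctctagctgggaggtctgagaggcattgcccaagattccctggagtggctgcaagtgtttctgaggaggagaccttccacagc

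Lipe (chr7:25395988-25396237, minus strand): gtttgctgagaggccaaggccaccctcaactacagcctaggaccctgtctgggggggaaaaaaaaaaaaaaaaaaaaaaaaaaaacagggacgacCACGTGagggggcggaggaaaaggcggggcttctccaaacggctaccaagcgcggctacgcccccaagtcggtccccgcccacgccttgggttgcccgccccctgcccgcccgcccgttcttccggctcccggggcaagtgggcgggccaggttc

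Fam13a held 2 CCAAT matches, beginning 235 and 44 bases before the start, and no match to the other 5 motifs. Adipoq held 3 CCAAT matches, at 34, 27 and 7 bases before the start, and Plin1 none of the 6 motifs. CCAAT was found in 37.4% of 32851 mouse windows of this length, so these matches are common. The single E-box among the 10 windows began 155 bases before a Lipe start, and 7.15% of all windows held one. The D-box was in 0.938% of windows, the PPAR element in 0.0396%, the glucocorticoid element in 0.00913% and TATAAA in 13.6%. No window of the fat cell genes held a D-box, PPAR or glucocorticoid match, and one Pparg start held TATAAA, 29 bases before it.

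The second comparison set the 6 dark pools against the 7 light pools in limma, with linear time as covariate. None of the 10 genes passed, while the share over all genes was 0.00613% (1 of 16322). At an unadjusted p under 0.05 there was 1 fat cell gene, Pck1, beside 12.4% of all genes. The fitted dark value was the higher in 7 of 10 fat cell genes and in 55.6% of all genes. Median centring of the arrays gave 6 of 10 and 37.4%, with Fabp4 turning, and quantile normalization 7 of 10 and 49.0%, with Fam13a and Plin1 turning in opposite ways.

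Pck1 encodes phosphoenolpyruvate carboxykinase, which in fat cells makes the glycerol backbone on which freed fatty acids are stored again. In the light pools it read 932.8, 810.5 and 1061 from ZT2 to ZT10, 769.1, 871.1 and 1168 from ZT26 to ZT34, and 770.2 at ZT50. In the dark pools it read 475.1, 722.6 and 664.5 from ZT14 to ZT22, and 633.1, 737.8 and 728.6 from ZT38 to ZT46. All dark pools lay below all light pools, which held for Pck1 alone among the 10 and for 0.165% of all genes (27 of 16322). The difference was -0.47 ± 0.12 log2 (SE, 95% interval -0.72 to -0.21), which did not pass (limma adjusted p = 0.324). The mean was 1114 ± 76.0 at 10 h and 554.1 ± 112 at 14 h, on either side of lights off (SD, n = 2 each). Its fitted wave had a fold of 1.48 and a peak at 6.5 ± 1.3 h (adjusted p = 0.528). Without ZT14, the lowest pool, the dark value was lower by -0.35 log2 (adjusted p = 0.481). Over all alternatives the lowest adjusted p was 0.122.

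Neither hormone gene passed. Adipoq encodes adiponectin, a hormone made by mature fat cells, and read 3419, 3338, 3290, 3564, 3181 and 3620 from ZT2 to ZT22. From ZT26 to ZT50 it read 2782, 2776, 3650, 3270, 3230, 3523 and 3009. ZT26 and ZT30 were the lowest pools and ZT34, the next in time, the highest, and the phases overlapped. The dark value was 0.12 ± 0.067 log2 above the light one (SE, limma adjusted p = 0.452).

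Lep encodes leptin, the hormone that reports the size of fat stores. It read 608.6, 669.2, 581.0, 715.4, 579.6 and 1026 from ZT2 to ZT22. From ZT26 to ZT50 it read 536.5, 604.3, 855.1, 937.4, 563.1, 608.6 and 675.1. ZT22, ZT38 and ZT34 stood above the other 10 pools, which lay between 536.5 and 715.4. ZT22 and ZT46, the same hour on both days, read 1026 and 608.6. The dark value was 0.15 ± 0.15 log2 above the light one (limma adjusted p = 0.65), 0.035 without ZT22 and 0.24 without ZT34. The waves of the days peaked at 21.9 h with an amplitude of 0.20 and at 12.2 h with one of 0.37, and their difference did not pass (limma adjusted p = 0.154). Over all genes the test of day 1 against day 2 called 2.93% (478 of 16322) and 26.6% had an unadjusted p under 0.05, while of the fat cell genes 0 were called and Lep alone had such a p. The count of 478 became 0 without any one of ZT2, ZT10, ZT14, ZT18, ZT22, ZT26, ZT30 or ZT34, 1 without ZT46 and 1582 without ZT42.

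Lipid uptake and binding genes had small daily differences. Lpl encodes lipoprotein lipase, which frees fatty acids from blood lipoproteins. It read 3710, 4002, 3827, 4457, 4427 and 4199 from ZT2 to ZT22, and 3937, 3700, 4663, 4222, 4372, 4483 and 4430 from ZT26 to ZT50. The 6 dark pools lay between 4199 and 4483, inside the light range of 3700 to 4663, and the dark value was 0.091 ± 0.053 log2 above the light one (limma adjusted p = 0.465). Fabp4, the fatty acid binding protein of fat cells, was the steadiest of the 10, with a coefficient of variation of 5.51% over pools. It read 5690, 6327, 5641, 6144, 6203 and 6172 from ZT2 to ZT22, and 6345, 6357, 6221, 6460, 6646, 6954 and 6323 from ZT26 to ZT50. Its fitted fold over the day was 1.03 (limma adjusted p = 0.936).

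The lipid droplet genes Plin1 and Lipe had lower values late in the collection, without passing. Plin1 encodes perilipin, the coat that guards stored triglyceride, and Lipe encodes hormone-sensitive lipase, which breaks it down. Plin1 read 2474, 2464, 2321, 2390, 2068 and 2360 from ZT2 to ZT22, and 1997, 2102, 2383, 2087, 1888, 2222 and 1989 from ZT26 to ZT50. Lipe read 3425, 3436, 3284, 3226, 3303 and 3045 from ZT2 to ZT22, and 3051, 3144, 3467, 3202, 2774, 2905 and 2935 from ZT26 to ZT50. In both genes ZT42 was the lowest pool, and ZT34 stood above its neighbours in time. The fitted change per 24 h was -0.13 ± 0.049 log2 for Plin1 (SE, limma adjusted p = 0.495) and -0.090 ± 0.036 for Lipe (limma adjusted p = 0.509). Fabp4 went the other way, at 0.085 ± 0.035 per 24 h (limma adjusted p = 0.522). None of the 10 genes passed for linear change, nor did any of the 16322 (0% called, smallest adjusted p 0.246). At an unadjusted p under 0.05 there were 3 fat cell genes and 8.8% of all genes. Wave folds were 1.05 for Plin1 and 1.09 for Lipe (limma adjusted p = 0.931 and 0.641), beside 1.11 for Lpl, 1.12 for Adipoq and 1.15 for Lep (0.608, 0.705 and 0.877).

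The spread over pools differed among the 10 genes. Fam13a varied most, with a coefficient of variation of 26.4%, then Pck1 at 22.8% and Lep at 22.4%, while the other 7 lay between 5.51% and 10.9%. The median SD over pools was 0.14 log2 in the fat cell genes and 0.11 over all genes. Within a time of day it was 0.12 and 0.11. ZT34 was the highest pool for Adipoq, Lpl, Lipe and Pck1 and the next highest for Pparg and Fam13a.

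Covariation asked whether the fat cell genes moved as a block from pool to pool, over 45 pairs of genes and 13 pools. The median Pearson r was 0.181, from -0.629 to 0.806, and 27 pairs (60.0%) were above 0. Over all pairs of the 16322 genes the median was 0.00743 and 50.7% were above 0. An r above 0.6 was found in 5 of the 45 pairs (11.1%), beside 6.94% of all pairs. Without ZT34 the median r of the fat cell genes was 0.0512. Pparg had the highest median r with the other 9 genes, 0.416, and Fabp4 the lowest, -0.147.

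**Figure D3:**
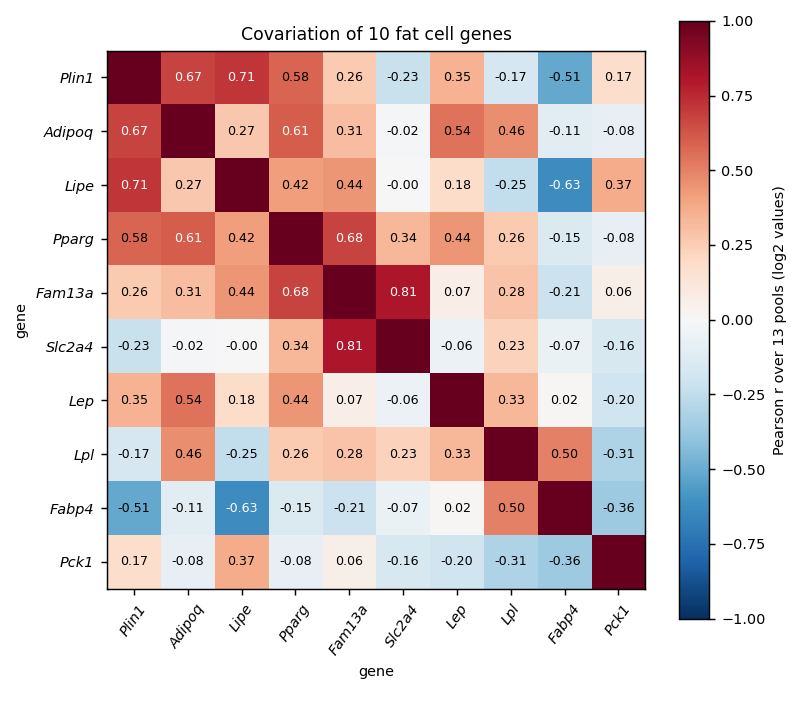
Pearson r over the 13 pools for each pair of the 10 fat cell genes, from -1 (blue) to 1 (red), with genes on both axes. Slc2a4 with Fam13a is the highest at 0.81, Plin1 with Lipe is at 0.71, and Fabp4 with Lipe is the lowest at -0.63. Slc2a4 with Fam13a is the one pair that passed.

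Permutation tests with 100000 resamples, two-sided and adjusted over the 45 pairs, passed 1 pair. Slc2a4 and Fam13a had r = 0.806 (permutation p = 0.00106, adjusted p = 0.0477) and Spearman's rho 0.830 (permutation p = 0.00076, adjusted p = 0.0342). Without the 2 pools farthest from the median of Slc2a4 r was 0.720. After the fitted wave and linear time were taken out of both genes r was 0.367. The pair then did not pass (permutation test, adjusted p = 0.469). After the muscle mean was taken out r was 0.825. The call was also lost without any one of 10 pools, all but ZT22, ZT34 and ZT42. There r lay between 0.735 and 0.814 and the permutation test's adjusted p between 0.052 and 0.234. With the wave and linear time taken out, Slc2a4 had r = -0.722 with Lipe, -0.623 with Plin1, -0.525 with Lep and -0.513 with Adipoq. With Pparg, Pck1, Lpl and Fabp4 its r then lay between -0.318 and -0.0947. The cause was not tested.

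Adipoq with Plin1 had r = 0.675 and rho 0.714 (permutation p = 0.0126 and 0.0085, adjusted p = 0.141 and 0.191). With the wave and linear time taken out of both, r was 0.949 and the pair passed (permutation test, adjusted p = 0.00045). Residuals vary less freely than separate pools, so this p is likely too small. Plin1 with Lipe had r = 0.713 and rho 0.676 (permutation p = 0.00721 and 0.0134, adjusted p = 0.141 and 0.201). Fabp4 with Lipe had r = -0.629 and rho -0.555 (permutation p = 0.0212 and 0.0535, adjusted p = 0.190 and 0.330), and with the wave and linear time taken out r was -0.0358. Of the 45 pairs 7 had an unadjusted permutation p under 0.05. The share of all gene pairs with such a p was not computed, so no excess is read from this count.

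**Figure D4:**
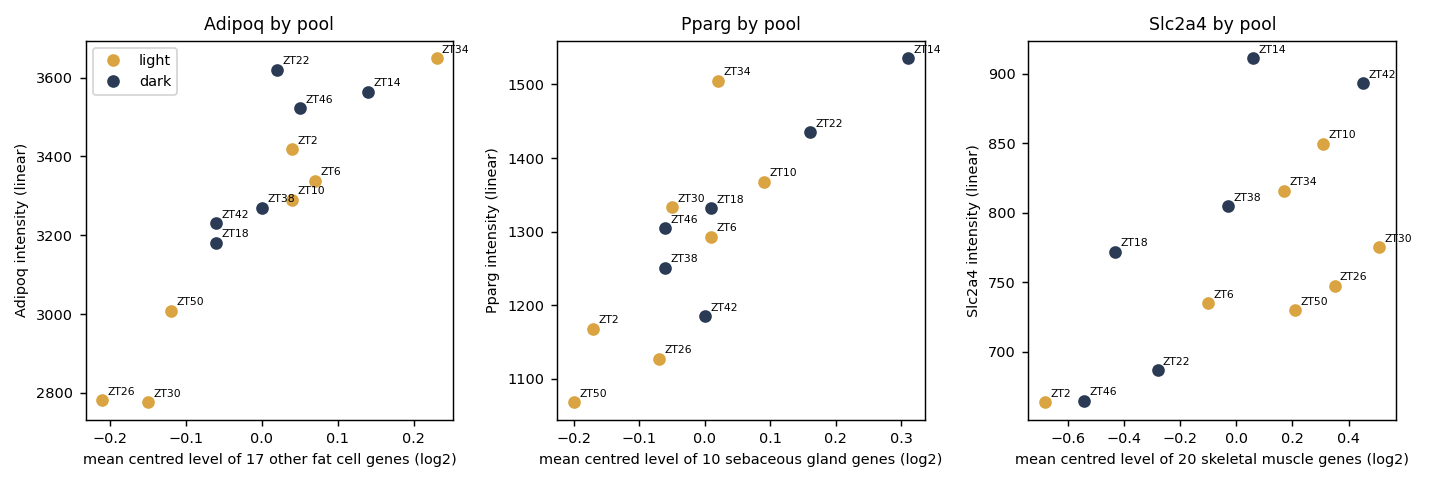
Intensity (linear scale, axis not from 0) of Adipoq, Pparg and Slc2a4 in each of the 13 pools against the mean centred log2 level of 17 other fat cell genes, 10 sebaceous gland genes and 20 skeletal muscle genes. Points are single pools, coloured by light and dark and marked with ZT. Adipoq follows the other fat cell genes from ZT26 and ZT30 at the bottom to ZT34 at the top.

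Each gene was then set against the mean of 8 marker lists, 80 relations in all, and 2 passed. Adipoq followed the 17 other fat cell genes (r = 0.901, permutation p = 4e-05, adjusted p = 0.0032; rho 0.885, permutation p = 0.00022, adjusted p = 0.0088). Without the 2 pools farthest from the median of the mean of these genes r was 0.865, and the call held without each pool in turn. Plin1 had r = 0.756 with the same mean and rho 0.758 (permutation p = 0.00254 and 0.00359, adjusted p = 0.0677 and 0.0957). Pparg had r = 0.713 with it and rho 0.588 (permutation p = 0.00633 and 0.0375, adjusted p = 0.127 and 0.479). Fabp4 had r = -0.198 and rho -0.308 with it (permutation p = 0.522 and 0.308, adjusted p = 0.859 and 0.758).

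Pparg followed the sebaceous gland genes (r = 0.825, permutation p = 0.00044, adjusted p = 0.0176; rho 0.901, permutation p = 9e-05, adjusted p = 0.0072). Pparg is also active in sebaceous gland cells, and 1 of the 10 sebaceous genes, Cidea, stands in the brown fat list too. Without the 2 pools farthest from the median of the sebaceous mean r was 0.685. The call was lost without ZT2, ZT14 or ZT50 (permutation test, adjusted p = 0.054, 0.123 and 0.1). It was also lost with the wave and linear time taken out (r = 0.727, adjusted p = 0.0585). The sebaceous mean was highest in ZT14 and lowest in ZT50, as was Pparg, and its summed intensity was 24401 to 29589 in light pools and 26237 to 33004 in dark pools. The part of sebaceous cells in the Pparg values was not tested.

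Slc2a4 had r = 0.657 and rho 0.610 with the skeletal muscle genes (permutation p = 0.0156 and 0.0301, adjusted p = 0.249 and 0.479). Without the 2 pools farthest from the median of the muscle mean r was 0.390. After the wave and linear time were taken out, r was 0.898 and the relation passed (permutation test, adjusted p = 0.0008). As residuals vary less freely than separate pools, this p is likely too small. The part of muscle in the Slc2a4 values was not tested. No member passed against the liver, endothelium, macrophage, fibroblast or nerve means.

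Other genes of the fat cell were read from lists by role. The shares called over all genes were 0.141% for the wave, 0.00613% for dark against light, 0% for linear change and 2.93% for day 1 against day 2. In lists of this size 0 calls are near these shares. Of the 17 measured genes that mark mature fat cells 0 passed any of the 4 comparisons, and 7 of 17 had an unadjusted wave p under 0.05, beside 9.54% of all genes. Car3, the carbonic anhydrase abundant in fat, had a wave fold of 1.14, Retn 1.21 and Cd36 1.08 (limma adjusted p = 0.505, 0.567 and 0.777). Of 19 genes of triglyceride storage and breakdown 0 passed and 5 of 19 had an unadjusted wave p under 0.05. Both lists were chosen with earlier results of these data known, so no excess is read from these counts. Pnpla2, the lipase that acts before Lipe, had a wave fold of 1.22 with a peak at 13.6 h (limma adjusted p = 0.432). Bscl2 (seipin) had a fold of 1.03 and Cav1 (caveolin) 1.14 (limma adjusted p = 0.942 and 0.54).

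All 12 genes of fatty acid synthesis had a higher fitted value in the dark, 11 of them with median centring, but 0 passed. The share of all genes higher in the dark was 55.6% as deposited and 37.4% with median centring. Of the sebaceous genes 9 of 10 and of the liver genes 12 of 12 were also higher in the dark as deposited. Of the skeletal muscle genes 0 of 20 were, as deposited and with quantile normalization or median centring. Their median difference as deposited was -0.30 log2, and 0 of them passed. The centred liver mean was 2.32 log2 in ZT46 and between -0.68 and 0.42 in the other dark pools. Fasn, fatty acid synthase, was 0.23 ± 0.054 log2 higher (SE, limma adjusted p = 0.315), and its highest pool was ZT14. The desaturase genes Scd1 and Scd2 were 0.088 ± 0.056 and 0.050 ± 0.043 higher (limma adjusted p = 0.494 and 0.605). Sebaceous glands and epidermis also make fatty acids, and their part in these values was not tested.

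Of 17 regulators of fat cell formation 0 passed, and Klf5, Med1 and Rxra had wave folds of 1.07, 1.05 and 1.03 (limma adjusted p = 0.705, 0.842 and 0.925). Of 14 genes of insulin action and glucose use 0 passed. Pik3r1, the regulatory subunit of the kinase below the insulin receptor, had a fold of 1.24 with a peak at 14.7 h (limma adjusted p = 0.372), Akt2 one of 1.05 and Mef2a one of 1.09 (limma adjusted p = 0.836 and 0.763). Of 9 genes of fat cell precursors 0 passed, and Cd24a, Cd34 and Dpp4 had folds of 1.09, 1.15 and 1.16 (limma adjusted p = 0.687, 0.54 and 0.685). Of 7 measured genes of brown and beige fat 0 passed. Cox8b and Cox7a1, which skeletal muscle also expresses, had folds of 1.71 and 1.53 and Zic1 1.19 (limma adjusted p = 0.501, 0.512 and 0.661). In the same pools 7 of 17 core clock genes passed for the wave, beside 0.141% of all genes, with folds from 1.54 for Arntl to 5.85 for Dbp. The test of day 1 against day 2 called 3 of 10 macrophage genes (Adgre1, Mrc1 and Cd163) and 2 of 11 fibroblast genes (Col1a2 and Col3a1), with limma adjusted p from 0.0441 to 0.0461, beside 2.93% of all genes. All these calls were lost with quantile normalization or median centring, where 0 genes were called.

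The genes most like the mean of the 10 fat cell genes were sought over all 16322 by Pearson r across the 13 pools, as a description. They were Hlf (0.917), Nrg4 (0.909), Cidec (0.893), Marveld1 (0.881), Spindoc (0.869), Cry2 (0.860), Slc46a3 (0.858) and Lgals12 (0.855), and each had its highest value in ZT34. Nrg4, Cidec and Lgals12 also stand in the list of fat cell markers, while Hlf and Cry2 belong to the clock and its output. The mean was taken over centred values not scaled to equal spread, so Fam13a, Pck1 and Lep weighed most in it. Their SD over pools was 0.336, 0.324 and 0.290 log2, beside a median of 0.138 in the 10 genes. Cidec, a lipid droplet protein, ran from 2183 in ZT26 to 4303 in ZT34. The genes most like Fam13a were Il31ra (0.950), Dennd2a (0.917), Tns1 (0.912), Ddb2 (0.904) and Phldb1 (0.901), each highest in ZT14. Il31ra, a receptor chain for an itch cytokine, itself had a wave of 1.56-fold with a peak at 11.9 h (limma adjusted p = 0.0304).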

How the data were processed

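Skin RNA pools were measured on 1-colour Affymetrix whole-transcript arrays. The submitters' processing notes name PLIER 2.0 and Affymetrix Expression Console 1.1.1 without their roles. The values the authors deposited range as linear intensity of probes does. Their scaling between arrays and the genome build are not given in the sources used here. Array medians lay between 440.0 and 483.2, and the number of arrays limits the precision. Of 35557 probes 21789 carried 1 symbol, 1621 several, and 12147 are unnamed here. RefSeq's GRCm38.p6 gene table held 21698 of the first and updated 0. Where a gene had several probes above the filter (831 genes), the one with the highest mean was used. Levels of different probes were not compared.

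Values became log2(intensity + 16), so a fold understates the change of dim genes. Waves (24 h cosine and sine), dark against light, linear change and day 1 against day 2 (12 pools, without ZT50) were fitted in limma 3.58.1 (R 4.3.3) over 16322 genes after a check on simulated data. Peaks are in hours after lights on. Correlations used log2 values with 100000 permutations. Python 3.11.15 and matplotlib 3.10.9 made the figures.

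The members and lists were chosen with earlier results of these data known. Named were all members, each fat cell list's 3 genes with the highest mean, called genes of any list and the 8 and 5 genes most like the members' mean and Fam13a, passing over predicted genes, RIKEN clones, small RNAs and olfactory receptors. Clock genes are given by count. The labels hold no replicate numbers. Alternatives were other scalings, pseudocounts, filters, covariates and wave forms, an intensity trend, times of day as a factor, every probe, a threshold of 0.01, residuals, and leaving out each pool. With every probe in the fit, each member was still read from its probe with the highest mean, so other probes of the members were not examined.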

Additional observations from a re-analysis of the deposited data

Results flagged for a closer look

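Of 44 sets of values checked for a pool far from the rest of its light or dark group, 3 stood out, and chance alone gives about 1 in 20. Pck1 in ZT14, at 475.1, was far below the other dark pools, with a gap of 0.651 of the group's range. The mean of the brown and beige fat genes was low in ZT2 among the light pools, with a gap of 0.581 of the range. The mean of the liver genes was high in ZT46 among the dark pools, with a gap of 0.633 of the range. In ZT14 the sebaceous mean was also at its highest, and in ZT2 the muscle mean at its lowest, and their part in these values was not tested.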

How the results depend on the processing

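The members called for the 24 h wave, 1 in the values as deposited, became 0 with quantile normalization, no filter, a 50th percentile filter that removes Fam13a, day as a factor, the muscle or other fat cell covariate, the 24 and 12 h waves together, times of day as a factor or an adjusted p under 0.01, and ranged from 0 to 1 when pools were left out. Over all genes the wave called 15 with no filter, 9 with times of day as a factor, 12 at an adjusted p under 0.01 and 13 to 30 when pools were left out. The day 1 against day 2 test called 0 genes with quantile normalization, median centring or no filter, 5 with a 50th percentile filter, and 0 to 1582 when pools were left out. Pairs called became 0 with quantile normalization and 2 with median centring, and ranged from 0 to 3 when pools were left out. Marker relations called became 5 in residuals of the wave and linear time, where the permutation p is likely too small. They ranged from 1 to 3 when pools were left out. The wave of Lep moved its peak by over 6 h with the other fat cell covariate (amplitude 0.0178), as did that of Plin1 without ZT34 (0.0162; 0.0133 to 0.0586 over pools left out). The dark minus light value turned for Fabp4 with median centring (-0.000637), for Plin1 with quantile normalization (0.0073) and pools left out (-0.0337 to 0.0255), for Slc2a4 with pools left out (-0.0116 to 0.092), and for Fam13a with quantile normalization (-0.0113), day as a factor (-0.0382), the other fat cell covariate (-0.0302) and pools left out (-0.0988 to 0.189). The linear change turned with pools left out for Pck1 (-0.0466 to 0.116) and Fam13a (-0.0703 to 0.0214). The r of Adipoq turned with Slc2a4 under quantile normalization (0.0117), after the muscle mean (0.526) and with pools left out (-0.195 to 0.102), and with Pck1 under median centring (0.0614), in residuals (0.190) and with pools left out (-0.355 to 0.138). Of all 45 pairs, 10 changed sign in residuals of the wave and linear time, among them Plin1 with Lpl (to 0.528), Lpl with Lipe (to 0.499) and Pparg with Slc2a4 (to -0.318), and 3 with quantile normalization. The cause was not tested. None of these turned values was called. Of the values and counts of calls recomputed for the results above, 1269 were kept and 77 counts moved. Among the values, 25 changed sign or phase, 34 lost their call and 11 gained one. A value was kept if its direction and side of the threshold held, and a count if it stayed within a set fold. The labels give no replicate numbers to pair pools by, and the day, which pairs pools of the same hour, was fitted as a factor. One pool for most days and hours leaves the spread between single mice unseen.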
